A study of Mus musculus with 14 samples.

Results

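Mesothelium and body wall marker genes were followed in mouse forelimb buds with and without mesenchymal Smad4. The set holds 10 genes chosen by symbol, namely Wt1, Upk3b, Upk1b, Msln, Lrrn4, Krt19, Gata4, Gata5, Gata6 and Tcf21, out of 23284 symbols in the count files. They were picked because Wt1 and Upk3b differed between the genotypes in opposite directions at the 2 stages. The genotype differences of these genes are therefore given as a description, and where calls are counted nothing is read from them. Tests were kept for the change between stages averaged over the genotypes, for the spread of embryos within a group, and for other genes of the same and of neighbouring tissues.

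RNA was sequenced from embryos of the NMRI strain, and each sample pooled both forelimb buds of 1 embryo. Control embryos, called wild type, were Smad4+/+ PrxCreT/+ and so carried the same Cre transgene as the mutants. Mutant embryos were Smad4Δ/Δc PrxCreT/+, with a null allele in every cell and a conditional allele that the Prrx1-driven Cre inactivates in limb mesenchyme, so that cells in which the Cre is not active keep a single working copy. At E10.0 (30 somites) and again at E10.5 (35 somites), 3 wild-type and 4 mutant embryos were sequenced.

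Counts assigned to genes ranged from 34066930 to 61691258 per embryo, and levels are given as CPM, the share of a gene in the TMM-scaled library size on the usual scale. Smad4 lay between 152 and 169 CPM in the 6 wild-type embryos and between 32.9 and 46.0 CPM in the 8 mutants, in keeping with the labels. In 4 libraries, the mutants numbered 4 and 5 at each stage, the ribosomal RNA precursor Rn45s took 1.72 to 8.05% of the counts, against 0.151 to 0.478% in the other 10. No wild-type embryo belonged to these libraries. Comparisons without them rest on 2 mutants per stage, and their values are given where they matter. In bulk tissue, fewer cells of a type and less RNA per cell cannot be told apart either.

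The mesothelium is the epithelium that lines the body cavities, and in the embryo it arises from the coelomic lining of the lateral plate mesoderm next to the base of the limb bud. WT1 is a zinc finger transcription factor of mesothelium, epicardium, kidney and gonad. UPK3B and UPK1B are uroplakins, membrane proteins also known from the bladder lining, MSLN is mesothelin, a surface glycoprotein, LRRN4 is a leucine-rich repeat membrane protein and KRT19 is a keratin of simple epithelia. GATA4, GATA5 and GATA6 are zinc finger transcription factors of heart, gut and lateral plate mesoderm, and TCF21 is a basic helix-loop-helix factor of the mesenchyme under mesothelium and epicardium.

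The markers were expressed at low levels. Msln, a defining marker of mature mesothelium, had 0 to 8 reads per embryo, and Tcf21 had 0 to 7 reads. A library needed 3 reads to exceed the limit that a count of 0 allows, which equals 0.0513 to 0.0819 CPM in the E10.0 mutants and 0.0589 to 0.0721 CPM in the E10.5 wild type, and this limit covers counting error only. With Gata4, these were the 3 genes that did not reach 1 CPM in at least 3 embryos. The other 7 passed, but Upk1b reached 1 CPM in 3 embryos, all of E10.5, and Lrrn4 in 6, all of E10.0. Upk3b reached it in 5, the 4 mutants of E10.0 and 1 wild-type embryo of E10.5. The filter thus let Upk1b and Lrrn4 in through the stage in which they were high, and Upk3b mainly through the E10.0 mutants.

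Per kilobase of merged exon, Krt19 was the highest of the set in wild type at E10.0 with 3.45 ± 0.501 CPM per kb (SD, n = 3). Gata6 followed with 1.54 ± 0.475, Gata5 with 0.760 ± 0.185 and Lrrn4 with 0.356 ± 0.136 CPM per kb. The first 4 ranks were separated with no overlap between embryos, whereas from Lrrn4 through Upk1b, Wt1, Upk3b and Gata4 to Msln and Tcf21 each gene overlapped the next. In the mutants of the same stage the order was Krt19, Gata6, Upk3b, Wt1, Lrrn4 and Gata5, and each overlapped the next in that order. Upk3b stood at 2.12 ± 1.09 CPM per kb (SD, n = 4) there, against 0.206 ± 0.139 (n = 3) in wild type. In the E10.5 mutants Gata5 ranked 7th with 0.0944 ± 0.0293 CPM per kb, against 0.572 ± 0.0752 in wild type of that stage.

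The sequences around 2 start sites are shown because Upk3b and Gata5 gave the widest differences between genotypes among the members with an entry in the RefSeq promoter table (GRCm38.p6). Each run holds 250 bases before and 50 after the start, read 5′ to 3′ on the gene's own strand, and capitals mark matches to GATAA on either strand, the letters that GATA factors are known to bind. Upk3b lies at chr5:136038246-136038545 on the plus strand, with its match starting at position -106, and Gata5 at chr2:180334630-180334929 on the minus strand.
Upk3b: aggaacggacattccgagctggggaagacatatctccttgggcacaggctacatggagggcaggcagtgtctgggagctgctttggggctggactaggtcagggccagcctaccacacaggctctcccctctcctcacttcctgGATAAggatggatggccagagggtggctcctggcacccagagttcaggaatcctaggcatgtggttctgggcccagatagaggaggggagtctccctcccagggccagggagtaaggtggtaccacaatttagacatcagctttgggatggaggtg
Gata5: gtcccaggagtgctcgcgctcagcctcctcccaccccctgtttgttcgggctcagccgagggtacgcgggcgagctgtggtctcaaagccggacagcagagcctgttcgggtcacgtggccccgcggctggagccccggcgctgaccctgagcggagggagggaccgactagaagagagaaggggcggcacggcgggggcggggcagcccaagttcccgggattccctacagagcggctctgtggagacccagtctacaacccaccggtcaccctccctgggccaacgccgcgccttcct
Of 32851 mouse promoters of this length, 25.4% hold GATAA on either strand. No GATAA was found in the Gata5 or Lrrn4 window, and Tcf21 had 1. For GTCTG, the letters of a SMAD box, Upk3b had 1 match, Tcf21 3, and Gata5 and Lrrn4 0, where 49.6% of all promoters hold it. For GNGGGNG, a GC-rich form related to WT1 and EGR motifs, Gata5 had 7 matches, Lrrn4 3, Upk3b 2 and Tcf21 0, where 64.7% of all promoters hold at least 1. Matches may overlap, and they describe letters in these windows only. Wt1, Upk1b, Msln, Krt19, Gata4 and Gata6 had no entry.

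Wt1 (mm9, chr2:104966686-105013773, plus strand) had 1.61, 1.88 and 0.880 CPM in the wild-type embryos of E10.0 and 5.32, 9.90, 10.1 and 5.07 CPM in the mutants of that stage. At E10.5 the wild-type embryos had 2.23, 3.36 and 3.96 CPM and the mutants 1.80, 1.74, 0.679 and 0.456 CPM. All mutants were above all wild-type embryos at E10.0 and below them at E10.5. The mutant mean was 5.21 times the wild-type mean at E10.0 and 0.366 times at E10.5, with log2 fold changes of 2.38 (SE 0.41) and -1.42 (SE 0.41). The 2 lowest E10.5 mutants were those with high Rn45s. Without all 4 such libraries the log2 differences were 2.40 and -0.84, and the E10.5 groups still did not overlap.

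Upk3b (chr5:136514366-136521173, plus strand) had 0.621, 0.716 and 0.110 CPM in wild type at E10.0 and 3.13, 8.33, 5.60 and 2.83 CPM in the mutants. At E10.5 the values were 0.529, 0.884 and 1.44 CPM in wild type against 0.213, 0.624, 0.113 and 0.130 CPM in the mutants. The groups were apart at E10.0, whereas at E10.5 the mutant with 0.624 CPM lay above the lowest wild-type embryo. The log2 differences were 3.35 (SE 0.57) at E10.0 and -1.76 (SE 0.63) at E10.5, the latter changing to -2.57 without that mutant, replicate 2, and to -1.18 without the libraries of high Rn45s. The E10.5 mutants held few reads for Upk3b, 4 being the lowest count of any embryo.

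Upk1b (chr16:38773297-38800316, minus strand) did not separate the genotypes. Its levels at E10.0 were 0.640, 0.532 and 0.550 CPM in wild type against 0.479 to 0.639 CPM in the mutants. At E10.5 they were 1.23, 0.845 and 1.27 CPM in wild type against 0.836, 1.66, 0.877 and 0.912 CPM in the mutants. Every E10.5 embryo was above every E10.0 embryo, in both genotypes. The log2 genotype differences were 0.02 (SE 0.28) at E10.0 and -0.03 (SE 0.25) at E10.5.

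Lrrn4 (chr2:132694041-132706627, minus strand) had 1.83, 0.818 and 1.32 CPM in wild type at E10.0 and 2.86, 4.83, 4.29 and 2.21 CPM in the mutants, with no overlap. At E10.5 the wild-type embryos had 0.865, 0.982 and 0.897 CPM and the mutants 0.622 to 0.912 CPM, and the groups overlapped. Its log2 genotype difference was 1.42 (SE 0.29) at E10.0 and -0.23 (SE 0.32) at E10.5. Krt19 (chr11:100002124-100009979, minus strand), which surface ectoderm also expresses, ranged from 4.43 to 7.48 CPM over the 7 embryos of E10.0 and from 2.92 to 7.91 CPM over those of E10.5. Its groups overlapped at both stages, with log2 genotype differences of -0.17 (SE 0.22) and -0.43 (SE 0.23).

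Gata5 (chr2:180059838-180069404, minus strand) differed between genotypes at the later stage. At E10.0 it had 2.01, 3.17 and 2.29 CPM in wild type against 1.78, 3.45, 2.32 and 1.33 CPM in the mutants, which overlapped. At E10.5 the wild-type embryos had 2.14, 1.65 and 1.84 CPM and the mutants 0.373, 0.410, 0.226 and 0.228 CPM. The E10.5 mutant mean was 0.165 times the wild-type mean, with a log2 difference of -2.54 (SE 0.33), against -0.16 (SE 0.27) at E10.0. An antisense gene, Gm14318, overlaps Gata5, and the counting ignored strand, so reads of the overlap cannot be assigned to either gene.

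Gata6 (chr18:11052508-11085633, plus strand) had 4.48, 6.62 and 3.70 CPM in wild type at E10.0 and 6.31, 8.53, 9.70 and 4.48 CPM in the mutants. At E10.5 it had 2.86, 3.69 and 5.34 CPM in wild type against 2.10, 2.99, 2.07 and 1.27 CPM in the mutants. Its genotype groups overlapped at both stages, with log2 differences of 0.56 (SE 0.30) and -0.90 (SE 0.31), the latter being -0.63 without the libraries of high Rn45s. A long noncoding RNA overlaps Gata6 on the other strand and was not counted apart.

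Gata4 (chr14:63817759-63890529, minus strand), below the filter, had 9, 30 and 10 reads in wild type at E10.0 and 14, 151, 48 and 7 reads in the mutants. At E10.5 it had 12, 19 and 10 reads in wild type and 2, 5, 3 and 1 reads in the mutants. The E10.5 mutants lay at 0.0326 to 0.0976 CPM, below all wild-type embryos at 0.219 to 0.373 CPM, while at E10.0 the mutants, at 0.172 to 2.61 CPM, overlapped the wild type at 0.164 to 0.613 CPM. Tcf21 (chr10:22537085-22539934, minus strand) had 1, 2 and 1 reads in wild type at E10.0, 2, 6, 7 and 5 reads in the mutants, 0 reads in every wild-type embryo of E10.5, and 1, 0, 1 and 0 reads in the mutants. Msln (chr17:25885559-25891272, minus strand) had 8, 2 and 4 reads in wild type and 2, 3, 3 and 2 in the mutants at E10.0, then 6, 1 and 4 reads in wild type and 0, 1, 1 and 0 in the mutants at E10.5. No fold is given for Tcf21 and Msln at these counts.

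**Figure D1:**
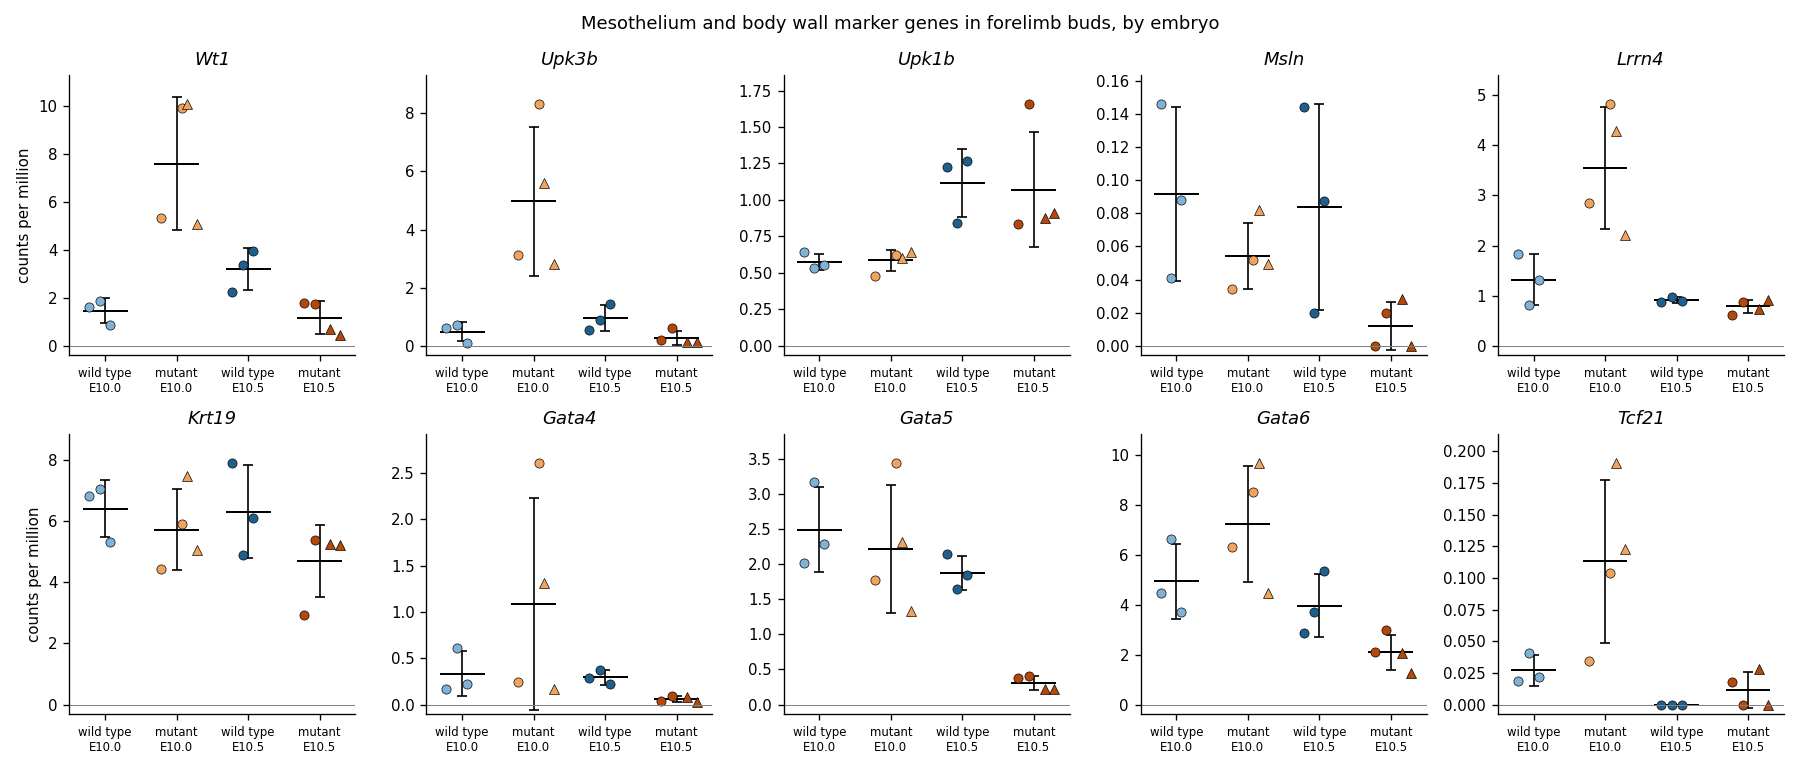
Level of each of the 10 genes (vertical axis, CPM, linear, a separate scale per gene) in the 14 embryos by group. Points are embryos, triangles the mutants 4 and 5 with high Rn45s, horizontal lines group means and bars ± SD. Wt1 and Upk3b are highest in the E10.0 mutants, Upk1b in both E10.5 groups, and Gata5 is lowest in the E10.5 mutants at 0.226 to 0.410 CPM.

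Set against all 12393 genes tested, the genotype differences were these. At E10.0, Wt1, Upk3b and Lrrn4, 3 of the 7 members tested, met the thresholds used throughout (false discovery rate of at most 0.1 in edgeR's exact test and a fold of at least 1.2) upwards and 0 downwards, where 3.33% and 3.28% of all genes did. At E10.5, 0 met them upwards and 4 downwards, Wt1, Upk3b, Gata5 and Gata6, where 2.19% and 1.54% of all genes did. Without the 4 libraries of high Rn45s the same 3 met them at E10.0, but at E10.5 only Gata5 did, and Wt1, Upk3b and Gata6 did not. The groups did not overlap for 3 members with the mutants above at E10.0 (8.07% of all genes tested) and for 0 with the mutants below (9.78%). At E10.5 they did not overlap for 2 tested members with the mutants below (6.4%), Wt1 and Gata5, and for 0 with the mutants above (6.59%). The members were chosen on these contrasts, so nothing is read from these counts. The change of the genotype difference between stages was -3.75 for Wt1, -5.05 for Upk3b, -2.37 for Gata5, -1.65 for Lrrn4, -1.44 for Gata6, -0.26 for Krt19 and -0.05 for Upk1b on the log2 scale, also as a description.

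**Figure D2:**
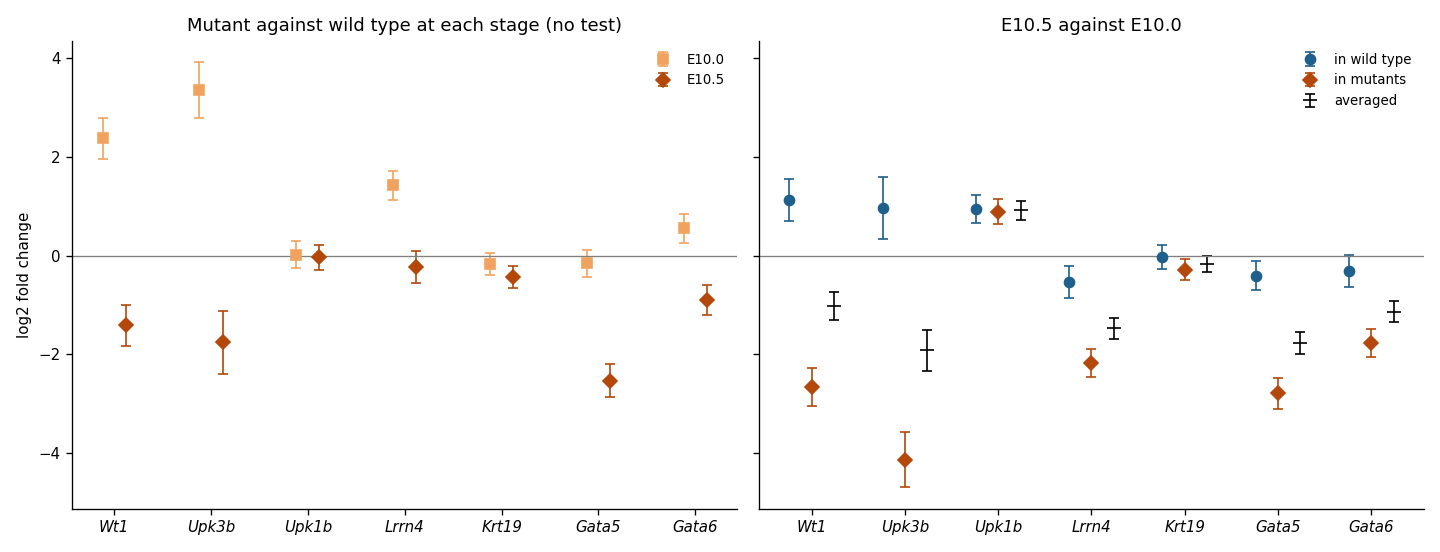
Log2 fold changes (vertical axis) of the 7 members tested, between genotypes at each stage (left) and between stages (right), with bars of ± SE from the quasi-likelihood fit. Wt1 and Upk3b lie above 0 at E10.0 and below 0 at E10.5 on the left, and the stage change of Upk1b is alike in both genotypes on the right.

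The levels of most members fell from E10.0 to E10.5 when the genotypes were averaged, mainly through the mutants. This average weights the wild-type change by 3 embryos and the mutant change by 4, which makes it uncorrelated, under equal variance, with the genotype difference of either stage. By edgeR's quasi-likelihood test with Benjamini-Hochberg adjustment over all genes, 5 of the 7 members fell and 1 rose, where 8.76% and 10.7% of all genes did. Among the 5 members other than Wt1 and Upk3b, 3 fell and 1 rose. The median log2 change was -1.14 for the 7 members and -0.01 for all genes. For the members it was -0.02 within the wild type and -2.18 within the mutants. Genes let in by the filter through their high stage enter the count and the medians. With no filter, 7 of all 10 fell and 1 rose, but the share of all genes in that fit is not given, so nothing is read from this count.

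Gata5 fell by 1.77 on the log2 scale (SE 0.22, adjusted p = 5.83e-05) in this averaged test, and Lrrn4 fell by 1.48 (SE 0.21, adjusted p = 1.69e-04). Gata6 fell by 1.14 (SE 0.21, adjusted p = 0.00129). The averaged change was -1.92 for Upk3b (SE 0.42, adjusted p = 0.00374) and -1.02 for Wt1 (SE 0.28, adjusted p = 0.0151). For Upk3b and Wt1 it combines positive changes within the wild type (0.97 and 1.13) with negative changes within the mutants (-4.14 and -2.67). It therefore describes neither genotype. Equal variance, on which its independence of the choice rests, was not tested. Counts ran from 4 to 481 reads for Upk3b and from 14 to 572 for Wt1, so counting error differed between embryos. The p-values of these 2 genes are therefore not taken as independent of their choice. Upk1b rose by 0.91 (SE 0.19, adjusted p = 0.00217). Krt19 changed by -0.18 (SE 0.16), which did not pass (adjusted p = 0.439). With no filter, Gata4 passed downwards (adjusted p = 0.00876), as did Tcf21 (0.0165), while Msln did not (0.218). In that fit Upk3b changed by -1.92 (adjusted p = 0.00196), Lrrn4 by -1.47 (6.45e-05) and Upk1b by 0.91 (0.00220). Without the 4 libraries of high Rn45s the 6 calls held, and the change of Wt1 was -0.71 (adjusted p = 0.0548).

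Within the wild type, Upk1b alone passed among the 5 members other than Wt1 and Upk3b, rising by 0.94 (SE 0.28, adjusted p = 0.0373 in edgeR's exact test), where 5.39% of all genes rose and 4.74% fell. The call was lost without wild-type E10.0 replicate 2 (adjusted p = 0.203) or 3 (0.136), and Upk1b was not tested without wild-type E10.5 replicate 1 or 3 or mutant E10.5 replicate 2, when it no longer passed the filter. With no filter it rose by 0.95 (adjusted p = 0.0452). Lrrn4 at -0.53 (SE 0.32), Gata5 at -0.41 (SE 0.30), Gata6 at -0.32 (SE 0.32) and Krt19 at -0.02 (SE 0.24) did not pass. The wild-type changes of Wt1 and Upk3b, 1.13 (SE 0.43) and 0.97 (SE 0.63), are descriptions. Wt1 did not overlap between the wild-type stages, and Upk3b did.

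Within the mutants, 3 of the same 5 members fell and 1 rose, where 8.4% and 10.8% of all genes did. Gata5 fell by 2.79 on the log2 scale (SE 0.32, adjusted p = 7.41e-17), Lrrn4 fell by 2.18 (SE 0.28, adjusted p = 1.24e-12) and Gata6 fell by 1.77 (SE 0.29, adjusted p = 7.07e-09), all by edgeR's exact test. With no filter, Lrrn4 fell by 2.18 (adjusted p = 3.69e-12). Upk1b rose by 0.89 (SE 0.25, adjusted p = 0.0110), close to its wild-type change. Krt19 did not pass at -0.29 (SE 0.21, adjusted p = 0.385). Wt1 and Upk3b changed by -2.67 (SE 0.38) and -4.14 (SE 0.56), given as descriptions. This contrast shares the mutant embryos with the genotype comparisons, and Lrrn4 and Gata6 followed Wt1 over the embryos (Pearson's r 0.805 and 0.833). The p-values of this contrast are therefore not independent of the pattern by which Wt1 and Upk3b were picked. Lrrn4 also passed the filter through E10.0 embryos only. The stage changes of wild type and mutants were not tested against each other for the members.

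Embryos of the same group that were low in Wt1 were also low in Upk3b and Gata6. Deviations of log2(CPM + 1) from the group mean, which remove the differences between groups, were correlated over 14 embryos for the 15 pairs of the 6 members with a mean of at least 1 CPM. All 15 coefficients were positive, and 3 pairs passed an adjusted p of 0.1 in an exact two-sided permutation test of embryos within groups. The share of all gene pairs that would pass was not computed, so the correlation is not shown to be particular to the markers. On the same measure, the 5 genes outside the set named below as closest to Wt1 had r from 0.590 (Alpk3) to 0.940 (Aldh1a2) with it. Pearson's r was 0.862 for Wt1 and Gata6 (permutation p = 9.65e-04, adjusted 0.00904), 0.842 for Wt1 and Upk3b (permutation p = 0.00121, adjusted 0.00904) and 0.825 for Upk3b and Gata6 (permutation p = 0.00434, adjusted 0.0217). Spearman's rho was 0.855 (permutation p = 0.00121, adjusted 0.0181), 0.785 (0.0149, adjusted 0.0745) and 0.811 (0.00762, adjusted 0.0571) in the same order.

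With the means of mutants 4 and 5 removed apart from those of the other mutants, r was 0.880, 0.927 and 0.816, each with an adjusted permutation p of 0.0521. Without the 2 embryos farthest from the median of the first gene, r was 0.794, 0.853 and 0.889 (adjusted permutation p = 0.0617, 0.0617 and 0.0376). Spearman's rho no longer passed there (adjusted permutation p = 0.168, 0.220 and 0.116). The embryos were split into 6 with Wt1 at -0.514 to -0.309 log2 units from their group mean and 8 at 0.0812 to 0.427, with none between. In the first 6, all were also below their group mean for Upk3b and 5 for Gata6, and of the other 8, 6 were above it for either gene. Within the 6, r for Wt1 and Upk3b was -0.005, and within the 8 it was 0.399, so the pooled value of this pair rests on the gap between low and high embryos. The within-side values for Wt1 and Gata6 were 0.720 and 0.579. Pairs with Krt19 or Lrrn4 did not pass, with r from 0.0467 for Wt1 and Krt19 to 0.612 for Upk3b and Lrrn4, and genes of 1 library share its depth and dissection.

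**Figure D3:**
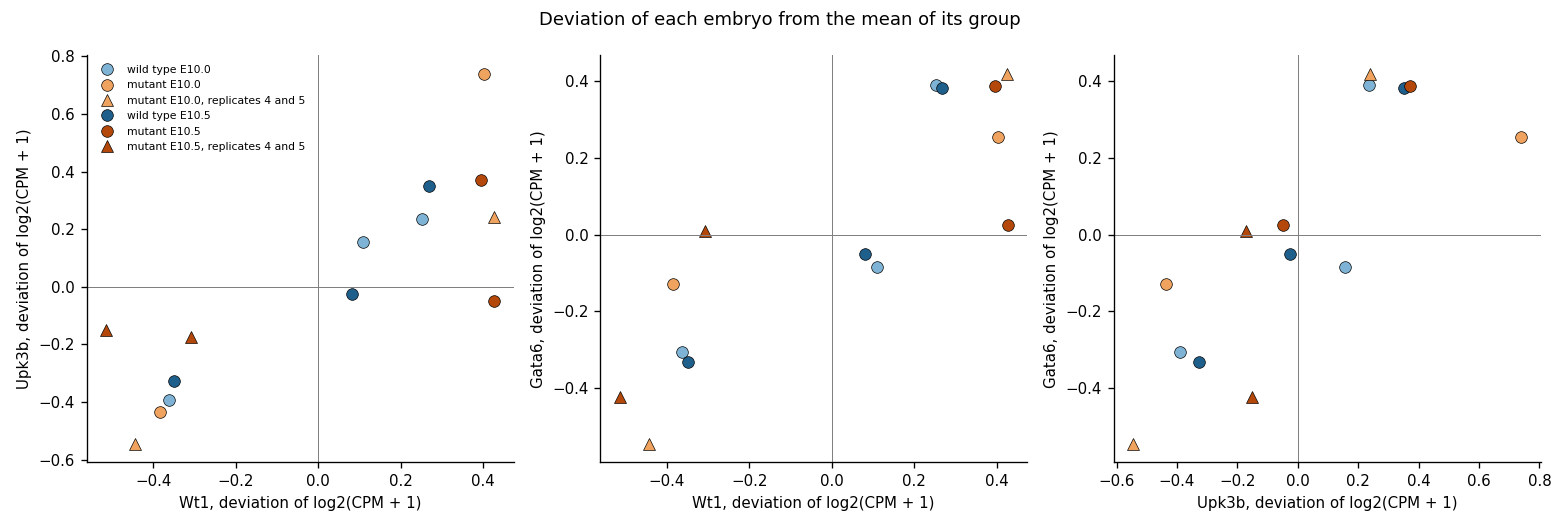
Deviation of each of the 14 embryos from its group mean, in log2(CPM + 1), for the 3 pairs that passed. Colours mark groups and triangles the mutants with high Rn45s. Embryos with Wt1 under the group mean lie at the lower left and the rest mostly at the upper right, with r of 0.842, 0.862 and 0.825 from left to right.

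Of 16 further mesothelial genes, 15 were in the files and 14 were tested. By edgeR's exact test 5 were higher and 0 lower in the E10.0 mutants, where 3.33% and 3.28% of all genes tested were. The median log2 difference was 0.13 against -0.02 for all genes. The list was chosen with earlier results of these data known, so it gives no independent support to the markers. Aldh1a2, the retinaldehyde dehydrogenase that makes retinoic acid, was higher by 2.27 (SE 0.28, adjusted p = 1.90e-14). Bnc2, a basonuclin zinc finger protein, was higher by 0.59 (SE 0.12, adjusted p = 7.51e-04), and Podxl, the sialomucin podocalyxin, by 0.43 (SE 0.09, adjusted p = 0.00192). Efemp1, a fibulin of the extracellular matrix, and Bnc1 were the other 2. By the quasi-likelihood test 4 rose, and without the libraries of high Rn45s 5 of 13 rose.

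At E10.5, 2 of the 14 were higher and 1 lower in the mutants, where 2.19% and 1.54% of all genes tested were. The median log2 difference was -0.08 against -0.01 for all genes. Bnc2 remained higher by 0.62 (SE 0.12, adjusted p = 2.38e-04), Tbx18, a T-box factor of epicardium and mesenchyme, was higher by 0.53 (SE 0.14, adjusted p = 0.00544), and Aldh1a2 was lower, at -1.20 on the log2 scale (SE 0.27, adjusted p = 1.57e-04 in edgeR's exact test). The summed level of the 15 genes was 250 to 281 CPM in wild type against 290 to 341 CPM in mutants at E10.0. The ranges at E10.5 were 289 to 325 and 321 to 350 CPM, in the same order. There the mean sum went from 303 CPM (wild type) to 330 CPM (mutants), and Tbx18 alone from 89.5 to 129 CPM. The higher sum of the E10.5 mutants therefore does not show a higher level of the other genes. The summed level of the 10 marker genes was 14.5 to 21.5 and 21.9 to 44.3 CPM at E10.0, and 16.7 to 21.2 and 8.91 to 13.8 CPM at E10.5.

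Averaged over genotypes, 5 of these 14 genes rose between the stages and 4 fell by edgeR's quasi-likelihood test, with a median of 0.05. Of all genes tested, 10.7% rose and 8.76% fell. Tbx18 rose by 0.79 (SE 0.10, adjusted p = 5.25e-05), Bnc2 by 0.54 (SE 0.08, adjusted p = 2.71e-04) and Rspo1, a secreted Wnt pathway agonist, by 0.80 (SE 0.13, adjusted p = 4.60e-04). Aldh1a2 fell by 0.98 (SE 0.19, adjusted p = 0.00159), Podxl fell by 0.33 (SE 0.07, adjusted p = 0.00160) and Bnc1 fell by 0.36 (SE 0.11, adjusted p = 0.0192).

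Among the 54 tested list genes, Aldh1a2 alone was called for a genotype difference that changed between the stages, where 0.186% of all genes tested were. It had 5.43, 6.62 and 3.83 CPM in wild type against 19.6, 34.4, 31.8 and 16.1 CPM in mutants at E10.0, then 7.76, 11.2 and 12.6 CPM in wild type against 5.37, 5.35, 4.33 and 3.26 CPM in mutants at E10.5. Neither stage showed overlap between genotypes. The change of the difference was -3.45 on the log2 scale (SE 0.39, adjusted p = 0.00329 in edgeR's quasi-likelihood test for the interaction), and it passed in all 19 alternatives. With DESeq2, 3 list genes were called. The lists were chosen with earlier results of these data known, and Aldh1a2 followed Wt1 closely over the embryos (Pearson's r 0.989). Its p-value is therefore not independent of the pattern by which Wt1 was picked.

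Of 15 lateral plate and body wall genes in the files, 13 were tested, and 5 were higher and 1 lower in the mutants at each stage by edgeR's exact test (by the quasi-likelihood test, 2 and 3 were higher and 1 lower at E10.0 and E10.5). At E10.0 the homeobox gene Prrx2 was lower, at -1.01 (SE 0.13, adjusted p = 1.07e-11). At E10.5 Prrx2 was lower, at -0.83 (SE 0.13, adjusted p = 1.03e-07) and Osr2, an odd-skipped zinc finger factor, higher by 1.49 (SE 0.25, adjusted p = 1.29e-07). Averaged over genotypes 5 of the 13 rose between stages, Osr2 by 2.48 (SE 0.18, adjusted p = 6.97e-07 in edgeR's quasi-likelihood test), and 2 fell, Hand1 and Zfpm1, a cofactor of GATA proteins. Of all genes tested, 10.7% rose and 8.76% fell. Hand1, a basic helix-loop-helix factor of lateral mesoderm and heart, fell by 1.39 (SE 0.38, adjusted p = 0.0128). It reached 1 CPM in E10.0 embryos only, and the call held with no filter.

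Other tissues were checked beside the markers. Limb mesenchyme genes (8 of 8 tested) summed to 1200 to 1376 CPM in wild type against 1005 to 1177 CPM in mutants at E10.0, and to 1409 to 1472 and 1149 to 1276 CPM at E10.5, with 4 lower and 1 higher in mutants at E10.0 and 3 lower and 1 higher at E10.5 (2 lower and 1 higher at each stage by the quasi-likelihood test). Surface ectoderm genes, relevant to Krt19, summed to 361 to 466 and 280 to 420 CPM at E10.0 and to 342 to 359 and 254 to 356 CPM at E10.5, and by edgeR's exact test 1 of 14 was lower at E10.0, Krt5, and 0 at E10.5. By the quasi-likelihood test 0 were called at either stage, and the call of Krt5 was lost in 6 of 20 alternatives. Averaged over genotypes 7 of these 14 fell between stages and 2 rose.

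Heart genes, which bear on Gata4, Gata5 and Gata6, summed to 3.13 to 6.20 CPM in wild type against 4.45 to 6.39 CPM in mutants at E10.0, and to 3.18 to 6.92 and 2.21 to 2.89 CPM at E10.5, so the E10.5 mutants were lowest. Nkx2-5, a defining heart factor, had 0 reads in every embryo outside the E10.5 mutants and 1 read in total in those. Of 8 heart genes 1 passed the filter, Tnni1, a troponin of slow and embryonic muscle, which was lower in the E10.5 mutants, at -0.98 on the log2 scale (SE 0.32, adjusted p = 0.0457 in edgeR's exact test). This call was lost in 7 of 20 alternatives, among them the quasi-likelihood test (adjusted p = 0.182) and the fit without the libraries of high Rn45s (0.109). Endoderm and liver genes summed to 2.56 to 3.43 CPM in wild type against 2.27 to 3.15 CPM in mutants at E10.0. At E10.5 they summed to 2.76 to 3.15 CPM in wild type and 3.06 to 11.4 CPM in mutants. Of the 371 reads of Afp in the E10.5 mutants, 364 came from a single embryo, at 7.10 CPM. Of these 8 genes 1 was tested and 0 were called. Kidney and gonad genes summed to 51.6 to 76.7 CPM, with 3 of 8 tested and 1, Emx2, higher in the E10.0 mutants. Most of this sum was Emx2, with group means of 36.0 to 51.1 CPM. Pax2, Pax8, Lhx1 and Nr5a1 had group means of at most 0.181 CPM. The part of these tissues in the marker values was not tested.

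The genes closest to Wt1 over the 14 embryos, by Pearson's r of log2(CPM + 1), were Aldh1a2 (0.989), Gm98 (0.911), Tnc (0.906), Alpk3 (0.905) and Nln (0.898). Those closest to Upk3b were Aldh1a2 (0.971), Gm98 (0.961), Podxl (0.958), Tnc (0.928) and Alpk3 (0.927), while Wt1 and Upk3b had 0.957 with each other. These values hold the group differences by which Wt1 and Upk3b were picked, so they carry no test. Gm98 is an older name of Myrf, a membrane-bound transcription factor, Tnc encodes the matrix protein tenascin C, Alpk3 an alpha kinase and Nln the peptidase neurolysin.

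Among the members, Gata6 had r of 0.833 and Lrrn4 of 0.805 with Wt1 over the same embryos, Gata5 0.583, Krt19 0.181 and Upk1b -0.269. Gm98 averaged 28.6 ± 2.52 CPM in wild type against 53.8 ± 12.97 CPM in mutants at E10.0, then 31.8 ± 3.20 and 29.0 ± 1.26 CPM at E10.5 (SD, n = 3 and 4). Tnc averaged 6.61 ± 5.47 and 21.2 ± 10.1 CPM at E10.0 and 5.84 ± 3.15 and 3.05 ± 1.92 CPM at E10.5. Both were highest on average in the E10.0 mutants, as were Wt1 and Upk3b. The group means of Nln ranged from 42.0 to 51.6 CPM.

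**Figure D4:**
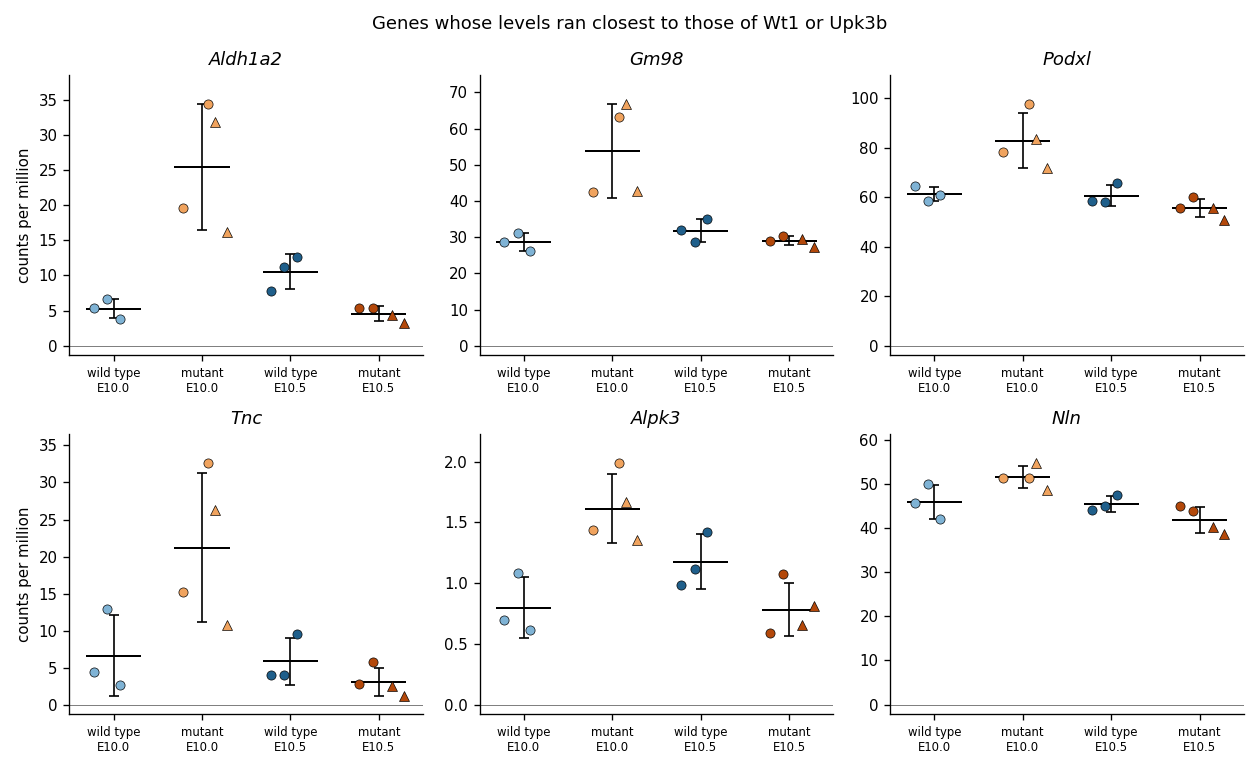
Levels (vertical axis, CPM) of the 6 genes closest to Wt1 or Upk3b in the 14 embryos by group. Points are embryos, triangles the mutants with high Rn45s, lines group means and bars ± SD. Aldh1a2 lies at 16.1 to 34.4 CPM in the E10.0 mutants and at 3.26 to 5.37 CPM in the E10.5 mutants.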

How the data were processed

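The deposited files hold whole-number counts of reads per gene symbol for 14 samples. Per the labels and the study's methods, the authors sequenced unstranded libraries as single-end reads, aligned them to mm9 with TopHat2 2.0.13, kept uniquely mapped reads and counted them with HTSeq without regard to strand. Reads assigned to no gene made up 6.18 to 9.86% and were left out of library sizes. Totals of 34066930 to 61691258 counts set the precision, so that low genes carry counting error of their own.

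Groups followed the genotype and stage in the labels. The members and gene lists were chosen with earlier results of these data known. The 1041 genes on the sex chromosomes and the mitochondrial genome were dropped, and a gene was tested when 3 or more samples reached 1 CPM. This order of filters was set after a first fit with the reverse order had been seen. Library sizes were scaled by TMM in edgeR 4.0.16 (R 4.3.3). Pairwise contrasts used the exact test with common and tagwise dispersions (prior df 10) over all 14 samples, as in the study's methods, and the averaged stage change and the interaction used the quasi-likelihood test. Calls needed a Benjamini-Hochberg false discovery rate of at most 0.1 and a fold of at least 1.2. SEs came from the quasi-likelihood fit. Correlations used scipy 1.17.1. The scripts were tested on simulated data. Each sample was a separate embryo, and no replicates agreed within counting error (chi-square divided by its degrees of freedom was 12.3 or more).

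Named genes were all 10 members, up to 3 list genes called per direction and contrast by smallest p, the 5 genes closest to Wt1 and to Upk3b, Smad4 and Rn45s. Genes named beyond this rule (Efemp1, Bnc1, Krt5, Emx2, Nkx2-5, Zfpm1, Afp, Pax2, Pax8, Lhx1, Nr5a1) were named after their values were seen. Coordinates are those of GENCODE on mm9, and promoters are RefSeq sequences on GRCm38.p6. Deviations of same-numbered mutants of the 2 stages correlated at 0.571, 0.611 and 0.269 (numbers 1, 4 and 5), all above the 0.1 taken to mark pairing. Mutants of different numbers did so too, at 0.349 (E10.0 number 1 with E10.5 number 2), 0.319 (3 with 2), 0.383 (4 with 5) and 0.286 (5 with 4). Between mutants 1 to 3 and the libraries of high Rn45s, numbers 4 and 5, the values were -0.587 to -0.174. The values thus do not single out equal numbers, and the labels tie the numbers to no litter or batch. Same-numbered wild-type samples did not pair (-0.0785, -0.109 and -0.283). Alternatives were RLE size factors, no filter, DESeq2 1.42.0, the quasi-likelihood test, a replicate block, each sample left out, and mutants 4 and 5 left out.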

Additional observations from a re-analysis of the deposited data

Results flagged for a closer look

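Upk1b in the E10.5 mutants stood out because replicate 2 had 1.66 CPM while the other 3 had 0.836, 0.877 and 0.912 CPM. Krt19 in the same group stood out because replicate 1 had 2.92 CPM while the other 3 had 5.21, 5.24 and 5.37 CPM. These were 2 of 14 groups of 4 embryos screened, and chance gives about 1 in 20.

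Wt1 was higher in every mutant than in every wild-type embryo at E10.0 and lower at E10.5, and its genotype difference changed by -3.75 on the log2 scale. It was not tested, because Wt1 was picked for it. The genotype difference of Aldh1a2 also changed between the stages, by -3.45 on the log2 scale (edgeR's quasi-likelihood test of the interaction, adjusted p = 0.00329). Both come from the same 14 embryos, in which the 2 genes were closely correlated.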

How the results depend on the processing

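The averaged stage change of Wt1, Upk3b, Upk1b, Lrrn4, Gata5 and Gata6 kept its direction and its call in every alternative in which the gene was tested (16 for Upk1b, 19 for each of the others), and no value that passed a test reversed. The adjusted p of Wt1 ranged from 0.00692 to 0.0548. The number of members other than Wt1 and Upk3b called between the wild-type stages was 1 and ranged from 0 to 1 with each sample left out. Genes of the fixed lists called between genotypes at E10.0 numbered 18, 11 under the quasi-likelihood test and 8 to 20 with each sample left out (11 and 8 without wild-type E10.0 replicate 2 and 3). At E10.5 they numbered 14, with 8 to 15 (8 and 9 without wild-type E10.5 replicate 1 and 3). The replicate number as a block left 8 at E10.5. Over all groups same-numbered samples had a mean correlation of deviations of 0.0355 (14 pairs, -0.426 to 0.611) against -0.0084 for other pairs, and the numbers did not pair wild type with mutants. Between the mutant stages, where same-numbered samples correlated but some of different numbers did too, the block changed no call of a member. List genes with a changed genotype difference numbered 1, 3 under DESeq2 and 1 to 2 with each sample left out (2 without wild-type E10.0 replicate 1 or mutant E10.0 replicate 5). Pairs of correlated members numbered 3, 5 with log2(CPM + 0.1) and 3 to 6 with each sample left out (5 and 6 without wild-type E10.0 and E10.5 replicate 1). The causes were not tested. Depth limits Msln, Gata4 and Tcf21.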
